A study of Mus musculus with 6 samples.

Results

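The collagen gene family was taken as every gene symbol of the count tables made up of Col, digits, the letter a and digits. The rule found 44 genes among 38926 symbols: 8 fibrillar chains, 8 chains of the basement membrane, 7 cartilage chains and 21 others. The data were read counts of L3 to L5 dorsal root ganglia taken whole, which hold the cell bodies of lumbar sensory nerves. All mice were wild type male C57BL/6 aged 6 to 8 weeks. Burn mice were sampled on day 3 after the injury and gave 3 libraries of total RNA, and mice labelled as controls gave 3. The labels give neither the burned site nor the handling of the controls. The title of burn 3 names it ipsilateral and gives no number, and the side of the others is not given. The labels name both neurons and whole ganglia as the source. The labels do not say that each library came from a separate animal, so the p-values measure the spread between these libraries, which may be technical.

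Collagens are secreted or membrane proteins whose chains wind into triple helices of repeated glycine-containing triplets. Fibrillar collagens assemble into the cables of connective tissue, type IV collagen forms the sheet of the basement membrane, and smaller collagens decorate fibrils or link cells to matrix. In a sensory ganglion they belong to the capsule and connective tissue around nerve fascicles, to vessel walls and to the basal laminae of Schwann cells and satellite glia. Levels of genes are given as CPM, reads of the gene scaled to a common total of reads counted in genes, after scaling of the libraries by TMM, a method that evens out differences in library composition. Where levels of different genes are compared, they are given as CPM per kb of the gene's principal transcript.

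Reads counted in genes ran from 17273908 to 81968142 per library, with burn 3 and control 3 above the widest gap in these totals. Collagen reads made up 0.417% of them in burn 3 (95% Wilson interval 0.416 to 0.419, counting error only), the lowest share, and 1.15% in control 2 (1.15 to 1.16), the highest. Markers of sensory neurons were high in every library, with a summed level of 10 genes of 8157 to 10262 CPM in burn libraries and 8919 to 11189.5 CPM in controls. Tubb3, a neuronal tubulin, alone ran from 1949 to 2869 CPM. Summed levels of other lists overlapped between the groups: 6 genes of satellite glia at 2430.1 to 3227 CPM in burn libraries and 2718 to 3410.2 CPM in controls; 8 of myelinating Schwann cells at 4031 to 8152 CPM in burn libraries and 4982 to 9179 CPM in controls; 8 of fibroblasts at 1239.6 to 1750.2 CPM in burn libraries and 1045 to 1319 CPM in controls. Perineurial cells (5 genes) stood at 226 to 345 CPM in burn libraries and 209 to 354 CPM in controls. Meningeal genes (6) stood at 429 to 848 CPM in burn libraries and 395 to 1485 CPM in controls. Endothelial genes (8) stood at 206 to 269 CPM in burn libraries and 207 to 294 CPM in controls, and mural cell genes (8) at 433 to 487 CPM in burn libraries and 472 to 549 CPM in controls. Genes of bone marrow (10) stood at 2345 to 3427 CPM in burn libraries and 1803 to 4232 CPM in controls, and those of macrophages (8) at 204 to 405 CPM in burn libraries and 179 to 278 CPM in controls. Transcripts of skeletal muscle (12 genes) ran widest, at 1791 to 10439 CPM in burn libraries and 739 to 11463 CPM in controls. Spinal cord genes (10) stood at 137 to 312 CPM in burn libraries and 70.8 to 136 CPM in controls. These sums did not overlap, by a narrow margin of 137.3 CPM in burn 2 against 136.5 CPM in control 2. Of these genes 10 of 10 had positive log2 fold changes, 0 of them called. At an edgeR unadjusted p under 0.05, 9 of 10 were higher, against 2.04% of all genes tested. Every burn library lay above every control for 5 of 10, against 4.33% of all genes tested. The cause of this difference was not tested. Summed levels of non-collagen genes of bone (9) did not overlap either, at 29.4 to 34.4 CPM in burn libraries and 36.3 to 58.5 CPM in controls.

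Type I and type III collagen dominated the family. Per kb of transcript, Col1a1 stood at 378 ± 150.3 CPM per kb in controls (mean ± SD, n = 3), Col1a2 at 357 ± 111 and Col3a1 at 239 ± 70.2. These are the chains of the main structural fibrils and of the finer reticular fibrils. Their control ranges overlapped. Within each control library Col3a1 lay below Col1a1, at ratios of 0.545, 0.619 and 0.826 in controls 1 to 3. The ratio of Col1a1 to Col1a2 was 1.07, 1.12 and 0.905 there, so the order of Col1a1 and Col1a2 is not resolved. The lowest control value of Col3a1, 177, lay above the highest of Col4a1, 84.7. Col4a1, which forms the basement membrane sheet with Col4a2, followed at 60.3 ± 21.1 CPM per kb. Next came the type VI chains Col6a1 (46.5 ± 18.2) and Col6a2 (43.6 ± 19.8), then Col15a1 (33.9 ± 5.93), Col4a2 (33.5 ± 11.7), Col5a2 (31.7 ± 9.19), Col28a1 (26.1 ± 6.0) and Col12a1 (25.4 ± 10.9), all in CPM per kb with overlapping control ranges between neighbours. The cartilage chains Col11a1 and Col11a2 lay in the middle of the family, at 9.8 ± 2.15 and 8.63 ± 3.8 CPM per kb. At the low end stood Col4a6 (0.112 ± 0.0413), Col9a1 (0.107 ± 0.0194), Col6a4 (0.083 ± 0.0289) and Col17a1 (0.0534 ± 0.0222). Col17a1, a transmembrane collagen of epithelial anchoring junctions, had 3 to 24 reads per library and was the 1 member left out by the filter on low counts.

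**Figure D1:**
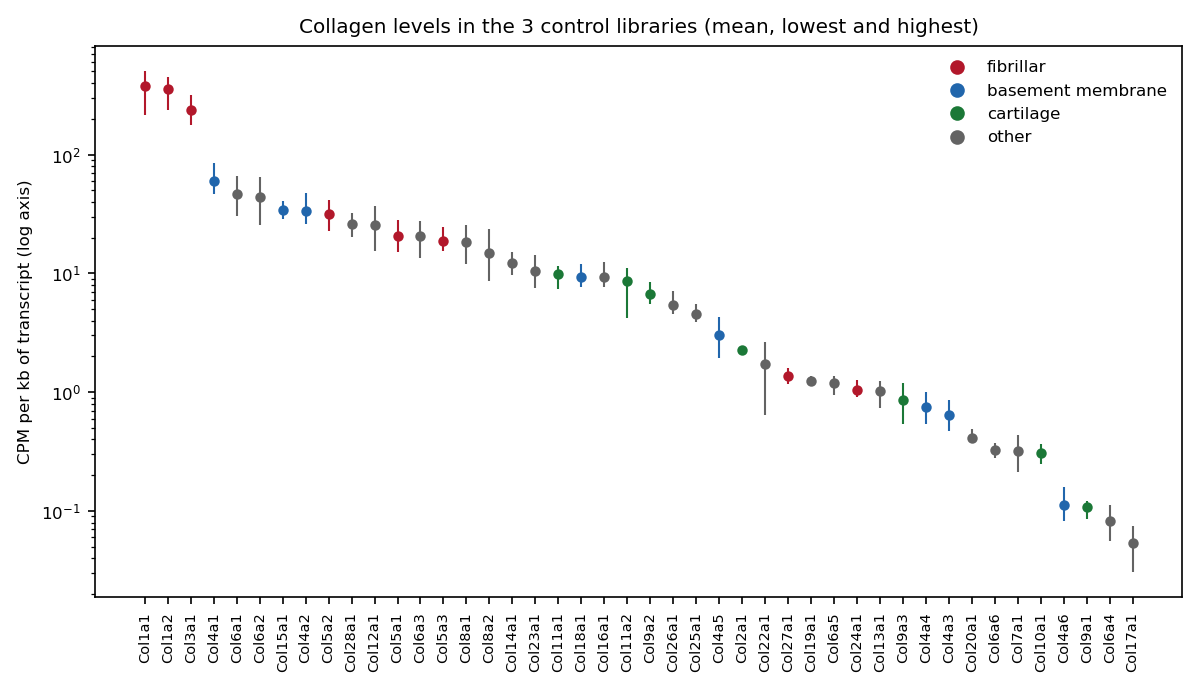
Level of each of the 44 collagen genes in the 3 control libraries, in CPM per kb of transcript on a log axis; points are means and bars run from the lowest to the highest library, coloured by class. Col1a1, Col1a2 and Col3a1 stand above all others, and Col17a1 is lowest at 0.0534 CPM per kb.

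Libraries of the same group differed in the whole family. Burn 1 had the highest value among the burn libraries for 35 of 44 members, against 32.7% of all 17534 genes tested, and control 2 the highest among controls for 37 of 44, against 39.8%. The lowest in its group was burn 2 for 27 members and control 3 for 28. Summed over the family, collagen stood at 8821, 4448 and 4442 CPM in burn libraries 1 to 3 and 8368, 11086 and 5678 CPM in controls 1 to 3. The groups overlapped, with burn 1 above control 1 and control 3. Several other lists had the same leading libraries. Burn 1 and control 2 were highest in their groups for 6 of 6 and 6 of 6 meningeal genes, 5 of 5 and 5 of 5 perineurial genes, 7 of 8 and 7 of 8 endothelial genes and 10 of 12 and 11 of 12 basement membrane partners. The most abundant meningeal gene, Ptgds, a prostaglandin synthase, stood at 713, 1331 and 323 CPM in controls 1 to 3 and 717, 354 and 435 CPM in burn 1 to 3. Other lists followed in part. Burn 1 was highest for 7 of 8 fibroblast genes and control 2 for 4 of 8, and the fibroblast sum was highest among controls in control 1. These counts were 8 of 8 and 5 of 8 for macrophages and 5 of 8 and 5 of 8 for mural cells. For myelinating Schwann cells they were 0 of 8 and 7 of 8. For sensory neurons, satellite glia and skeletal muscle neither burn 1 nor control 2 was highest for any gene. The part of these cell types in the spread of the collagens was not tested. Not all members followed this order: Col19a1, Col23a1, Col24a1, Col25a1, Col28a1, Col9a1 and Col9a3 were highest among burn libraries in burn 3, and Col22a1 and Col17a1 in burn 2.

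**Figure D2:**
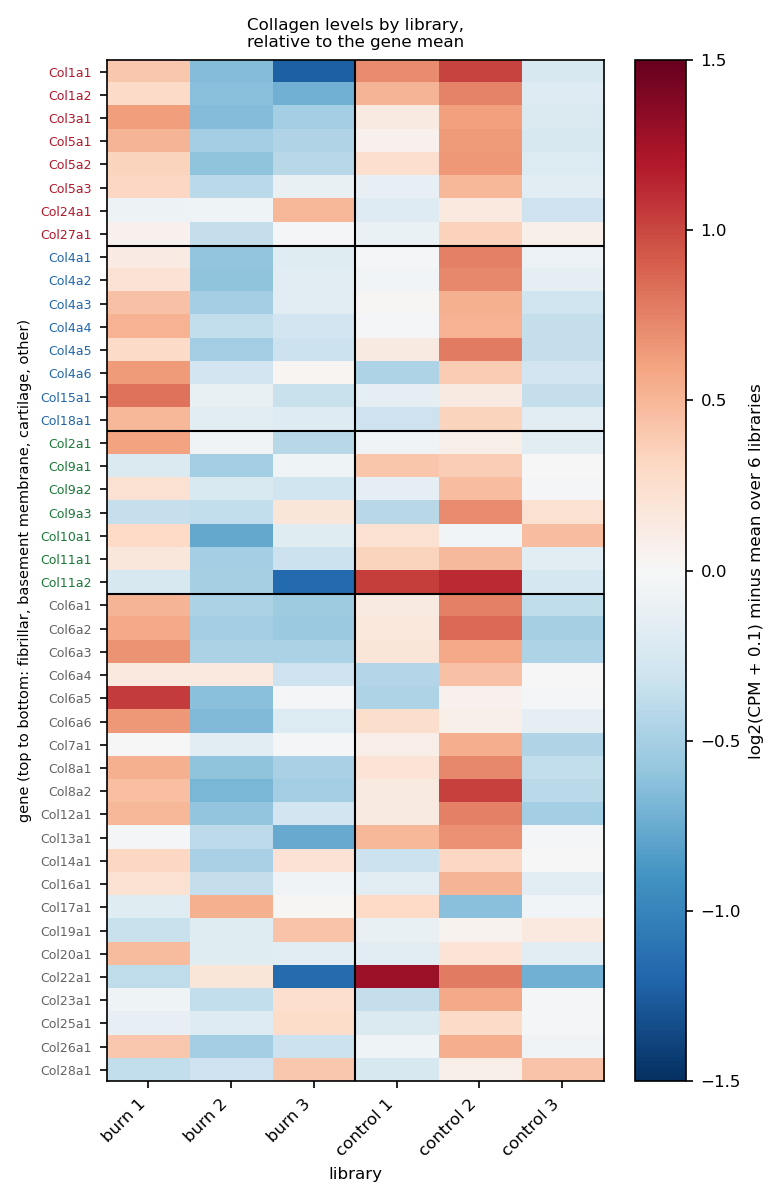
Each collagen gene (rows, in 4 classes) in each library (columns), as log2(CPM + 0.1) minus the gene's mean over 6 libraries, red above and blue below. Burn 1 and control 2 are red in most rows, and Col1a1, Col11a2 and Col22a1 are the rows with the deepest blue in burn 3.

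Burn against control asks which transcripts differ in ganglia of mice sampled after a burn, and no collagen gene passed that test. Of 43 members tested, 0 were higher and 0 lower by edgeR's quasi-likelihood test at a Benjamini-Hochberg adjusted p under 0.05, where 0.0228% of all 17534 genes tested were higher and 0.0% lower. Taking p-values under 0.05 before adjustment, 0 members were higher (2.04% of all genes) and 2 were lower, Col11a2 and Col13a1 (0.924% of all genes). DESeq2 called 0 members in either direction (0.132% of all genes higher and 0.0% lower), and limma-voom called 0 (0.0171% higher and 0.0% lower). The log2 fold change was negative in 35 of 43 members, against 47.9% of all genes, and its median was -0.22, against 0.01 over all genes. Members of 1 tissue are not independent of each other, and this count rests on 6 libraries. With 1 library left out the median moved: without control 2 it was -0.0035, without burn 1 -0.50, without burn 2 -0.084 and without control 3 -0.35. As plain differences of mean log2 levels, the median over members was -0.070 between the 2 deeper libraries and -0.32 among the 4 shallower ones. A total of 24 members were lower in both of these sets, 3 were higher in both and 16 had opposite signs. In bulk tissue, fewer cells of a type and less RNA per cell cannot be told apart.

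**Figure D3:**
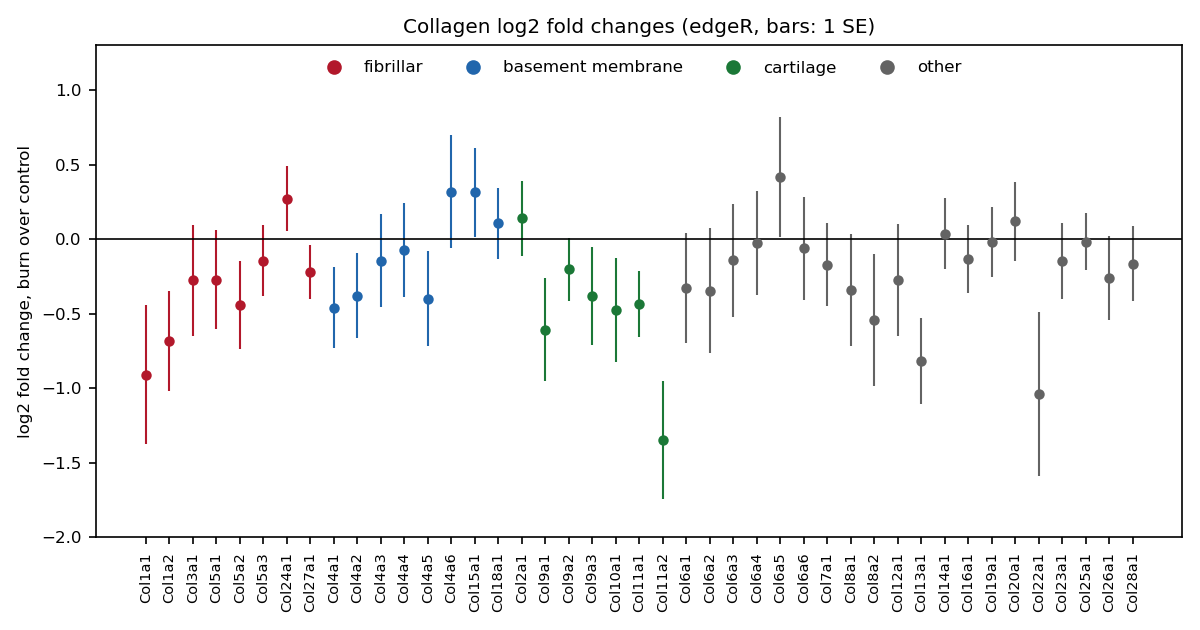
Log2 fold change of burn over control for the 43 tested collagen genes, with bars of 1 SE from edgeR, coloured by class. Most points lie below 0, Col11a2 lowest at -1.35, and none passed the test over all genes.

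Fibrillar collagens had negative signs in 7 of 8 members, with a median log2 fold change of -0.27, and 0 were called. This median was -0.73 without burn 1, -0.093 without burn 2, -0.17 without burn 3, -0.062 without control 2 and -0.44 without control 3. Col1a1, the major chain of type I collagen in bone, tendon and skin, stood at 1981, 956 and 642 CPM in burn libraries 1 to 3 and 2440.4, 3016 and 1267 CPM in controls 1 to 3. Burn 1 lay above control 3, so the groups overlapped (log2 fold change -0.91, SE 0.47, edgeR adjusted p 0.9998). Its partner chain Col1a2 stood at 1762, 938 and 875 CPM in burn libraries 1 to 3 and 2049, 2421 and 1262 CPM in controls 1 to 3. Here too only burn 1 lay above control 3 (log2 fold change -0.68, SE 0.34). Between the 2 deeper libraries the log2 difference of burn minus control was -0.98 for Col1a1 and -0.53 for Col1a2. Col3a1, the chain of reticular fibres in vessels and soft tissue, stood at 1761, 726 and 801 CPM in burn libraries 1 to 3 and 1249, 1752 and 982 CPM in controls 1 to 3. The highest of these values was in a burn library (log2 fold change -0.28, SE 0.37). Lists with mostly negative signs included bone marrow (10 of 10 genes), sensory neurons (9 of 10) and meningeal cells (5 of 6). Among genes of macrophages (0 of 8) and spinal cord (0 of 10) none was negative. The bone list, which holds no collagen, also had the negative sign. Of 9 genes 8 were tested and 8 had negative signs, with 0 called (lowest edgeR adjusted p 0.9998). At an edgeR unadjusted p under 0.05, 2 of them were lower, where 0.924% of all genes were lower. Mepe had 0 to 6 reads per library and was not tested. The most abundant, Alpl, an alkaline phosphatase, stood at 14.8, 16.1 and 14.9 CPM in controls 1 to 3 and 14.8, 10.2 and 10.9 CPM in burn 1 to 3, with overlap (log2 fold change -0.35, SE 0.17). Ibsp, bone sialoprotein, stood at 13.6, 7.57 and 8.55 CPM in controls 1 to 3 and 5.3, 7.22 and 5.83 CPM in burn 1 to 3, without overlap (log2 fold change -0.70, SE 0.25). Of all genes, 2.91% had every burn library below every control. The part of bone transcripts in the values of Col1a1 and Col1a2 was not tested. Fibroblast markers did not share the sign: 7 of 8 were positive, and Dcn, the proteoglycan decorin that binds collagen fibrils, stood at 942, 827 and 725 CPM in controls 1 to 3 and 1249.7, 901 and 1040.4 CPM in burn 1 to 3 (log2 fold change 0.36, SE 0.17).

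Type V chains join type I fibrils and limit their width. Col5a1 stood at 216, 106 and 110.0 CPM in burn libraries 1 to 3 and 158, 235 and 127 CPM in controls 1 to 3. The values of Col5a2 were 219, 115 and 130.3 CPM in burn libraries 1 to 3 and 207, 272 and 151 CPM in controls 1 to 3. Col5a3, a chain of restricted distribution, stood at 131, 79.9 and 97.7 CPM in burn libraries 1 to 3 and 97.5, 149.6 and 93.8 CPM in controls 1 to 3. In all 3 genes burn 1 and control 2 were the high libraries and the groups overlapped, with log2 fold changes of -0.27, -0.44 and -0.14. Col24a1, a minor fibrillar collagen, was the 1 fibrillar gene with a positive sign (log2 fold change 0.27, SE 0.22). It stood at 7.05, 8.96 and 6.47 CPM in controls 1 to 3 and 7.64, 7.75 and 11.5 CPM in burn 1 to 3, and its sign turned negative among the 4 shallower libraries (-0.033). Col27a1, a fibrillar chain known from cartilage, stood at 8.85 ± 1.31 CPM in burn libraries against 10.3 ± 1.63 (mean ± SD, n = 3).

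**Figure D4:**
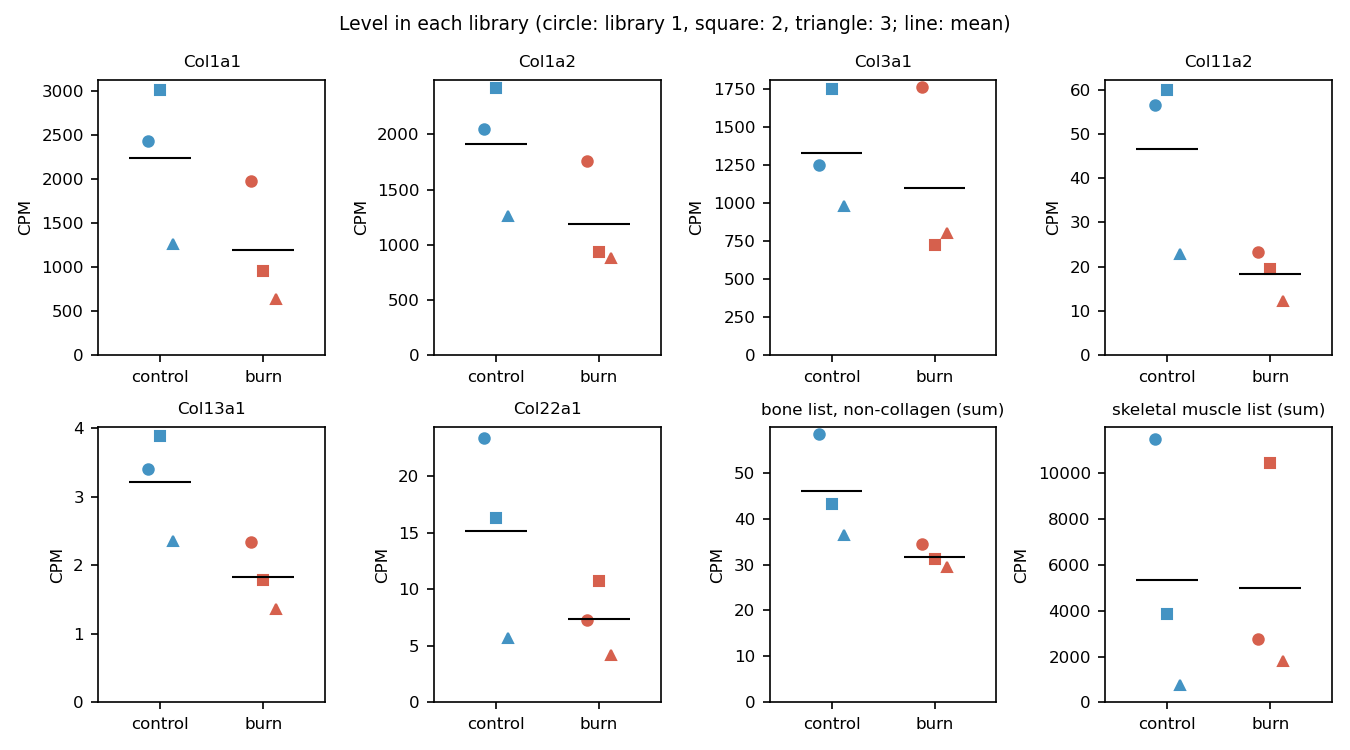
Level in CPM of 6 collagen genes and the summed level of the non-collagen bone list and the skeletal muscle list in each library, controls in blue and burn in red, with the group mean as a line. The bone list and Col13a1 are the panels without overlap between the groups, and the muscle list is high in control 1 and burn 2.

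Basement membrane chains had a median log2 fold change of -0.11, with 5 of 8 negative and 0 called. The sign of this median depended on single libraries: it was 0.15 without control 2, 0.072 without burn 2, 0.011 without burn 3, -0.43 without burn 1 and -0.28 without control 3. Col4a1 stood at 361, 219 and 292 CPM in burn libraries 1 to 3 and 326, 560.3 and 311 CPM in controls 1 to 3, with control 2 far above the rest (log2 fold change -0.46, SE 0.27). Col4a2 followed the same order, at 213, 120.5 and 165 CPM in burn libraries 1 to 3 and 178, 303 and 167 CPM in controls 1 to 3 (log2 fold change -0.38, SE 0.28). The X-linked chain Col4a5, which belongs to specialised basement membranes, stood at 20, 11.4 and 13.1 CPM in burn libraries 1 to 3 and 18, 28.2 and 12.7 CPM in controls 1 to 3, again with control 2 on top. Type IV genes lie in head-to-head pairs. In the GENCODE annotation of GRCm38, Col4a1 and Col4a2 on chromosome 8 start 22 bases into each other, Col4a4 and Col4a3 on chromosome 1 start 71 bases apart, and Col4a6 and Col4a5 on chromosome X 1308 bases apart. The interval between Col4a4 and Col4a3 is shown because these 2 genes start from 1 short stretch, and the ratio of their levels is given with the chain ratios. It is chr1:82586850-82586920 in RefSeq's GRCm38.p6, printed 5′ to 3′ on the strand of Col4a4:
Col4a4-Col4a3: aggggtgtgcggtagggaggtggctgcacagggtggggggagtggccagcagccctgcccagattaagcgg
No capitals appear in it because none of the 3 motifs searched (the letters CCAAT, the letters TATAA and the letters GGGCGG, on either strand) is in these letters. Col4a3 and Col4a4 were sparse, at 5.48 ± 1.65 and 7.53 ± 2.4 CPM in controls (n = 3), and Col4a6 had 19 to 53 reads per library. Col15a1 and Col18a1 carry sugar chains and lie in the basement membrane zone. Both had positive signs. Col15a1 stood at 331, 174 and 149.9 CPM in burn libraries 1 to 3 and 171, 208 and 147 CPM in controls 1 to 3, where the high mean after the burn rests on burn 1 (log2 fold change 0.32, SE 0.30). Without burn 1 the sign of Col15a1 was negative (log2 fold change -0.12). Col18a1, the source of endostatin, stood at 64.1, 40.5 and 39.7 CPM in burn libraries 1 to 3 and 36.5, 57.1 and 40.5 CPM in controls 1 to 3 (log2 fold change 0.11, SE 0.24).

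Cartilage collagens held the member with the lowest p of the family. Their median log2 fold change was -0.43, with 6 of 7 negative and 0 called, and without burn 2 it was -0.27. Col11a2, a chain of the type XI collagen that forms the core of cartilage fibrils, lies on chromosome 17 from 34039437 to 34066685 in GENCODE (GRCm38, plus strand), and RefSeq places its start further upstream. It stood at 23.3, 19.4 and 12.2 CPM in burn libraries 1 to 3 and 56.7, 60 and 22.9 CPM in controls 1 to 3. Every burn value lay below controls 1 and 2, while control 3 lay between burn 1 and burn 2, so the groups overlapped. Its log2 fold change was -1.35 (SE 0.40), or 2.54-fold lower after the burn, and it did not pass (edgeR unadjusted p 0.0114, adjusted p 0.9998). The call depended on the model and on how the depth of the libraries was treated. DESeq2 on all 6 libraries without a depth term gave an adjusted p of 0.0605. With a term that separates the 2 deeper libraries, Col11a2 was lower in edgeR at an adjusted p of 0.0171 (log2 fold change -1.27), in a fit that called 0.12% of all genes lower and 0.097% higher. Among the 4 shallower libraries alone the adjusted p was 0.0134 (log2 fold change -1.44), where 0.0231% of all genes were called lower and 0.0635% higher. A fit of the same 4 libraries with a term for their replicate number did not call Col11a2 (edgeR adjusted p 0.303, log2 fold change -1.44). Over 15 alternatives the adjusted p of Col11a2 ran from 0.0134 to 1 and its log2 fold change from -1.67 to -1.11. The bone list summed to 34.4, 31.3 and 29.4 CPM in burn libraries 1 to 3 and 58.5, 43.1 and 36.3 in controls 1 to 3, with the burn libraries in the same order as in Col11a2. The order of the controls differed, as the bone list was highest in control 1 and Col11a2 in control 2. Of the 9 non-collagen genes of cartilage 6 were tested, 4 with negative signs and 0 called, with a median log2 fold change of -0.19. Their summed level overlapped between the groups, at 72.3 to 106 CPM in burn libraries and 98.3 to 102 CPM in controls. The most abundant was Hapln1, a link protein of cartilage that other tissues also express, at 25.2, 14.2 and 40.8 CPM in controls 1 to 3 and 17.5, 21.1 and 41.8 CPM in burn 1 to 3, with overlap and a log2 fold change near 0 (SE 0.45). Comp, a cartilage and tendon matrix protein, stood at 30.2, 32.7 and 20.8 CPM in controls 1 to 3 and 16.8, 14.7 and 18.2 CPM in burn 1 to 3 (log2 fold change -0.75, SE 0.19), and was the 1 gene of the list with every burn library below every control. This held for 2.91% of all genes. Lect1, Prg4, Sox9 and Acan were also detected in every library, while Matn1, Matn3 and Ucma had 0 to 8 reads per library and were not tested. The part of bone or cartilage transcripts in the value of Col11a2 was not tested. Col11a1, which pairs with Col11a2 in type XI collagen, stood at 71.5, 44.5 and 50.9 CPM in burn libraries 1 to 3 and 80, 88.7 and 56.8 CPM in controls 1 to 3 and had a smaller difference (log2 fold change -0.43, SE 0.22).

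The sequences before the starts of Col11a2 and Col11a1 are shown because their products assemble together while their levels differed unequally. Both are the 250 bases upstream of the RefSeq start in GRCm38.p6, printed 5′ to 3′ on the gene's strand (the plus strand for both), chr17:34038888-34039137 for Col11a2 and chr3:114030290-114030539 for Col11a1. Capitals mark matches on either strand to CCAAT, known as a site of the factor NF-Y, to TATAA, known from TATA-binding protein, or to GGGCGG, known from Sp1-type factors:
Col11a2: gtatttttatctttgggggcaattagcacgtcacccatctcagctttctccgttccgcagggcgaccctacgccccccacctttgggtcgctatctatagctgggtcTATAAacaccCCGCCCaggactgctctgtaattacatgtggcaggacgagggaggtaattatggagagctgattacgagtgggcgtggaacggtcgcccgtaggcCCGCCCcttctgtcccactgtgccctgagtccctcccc
Col11a1: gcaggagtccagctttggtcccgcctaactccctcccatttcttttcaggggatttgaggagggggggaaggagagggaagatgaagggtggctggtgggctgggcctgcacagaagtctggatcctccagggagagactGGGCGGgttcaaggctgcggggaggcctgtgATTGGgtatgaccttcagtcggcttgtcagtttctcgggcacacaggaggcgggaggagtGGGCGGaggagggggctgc
Col11a2 holds TATAA 143 bases before its start and the reverse complement of GGGCGG at 133 and 38 bases, while Col11a1 holds the reverse complement of CCAAT at 79 bases and GGGCGG at 110 and 19 bases. The motifs do not overlap in these windows. Of 32851 windows of the same length, 33.8% hold CCAAT, 22.8% TATAA and 32.7% GGGCGG. Among 38 windows of the 35 collagen genes found in the table, 34.2% hold CCAAT, 18.4% TATAA and 57.9% GGGCGG. A match is a description of letters only.

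The remaining cartilage chains were lower in level. Col2a1, the main collagen of cartilage, stood at 18, 11.4 and 8.85 CPM in burn libraries 1 to 3 and 11.4, 12.6 and 10.6 CPM in controls 1 to 3. Its highest value was in burn 1, and its sign was positive (log2 fold change 0.14, SE 0.25). Col9a2, a chain of the type IX collagen that coats cartilage fibrils, stood at 20.9, 15.2 and 14.5 CPM in burn libraries 1 to 3 and 16.2, 24.6 and 17.5 CPM in controls 1 to 3 (log2 fold change -0.20, SE 0.21). The partner chain Col9a1 was counted with 6, 6 and 20 reads in burn 1 to 3 against 17, 8 and 26 in controls 1 to 3. In CPM these values did not overlap, at 0.464, 0.445 and 0.327 CPM in controls 1 to 3 and 0.265, 0.199 and 0.304 CPM in burn 1 to 3, and the difference did not pass (log2 fold change -0.61, SE 0.35). Over all genes, 2.91% had every burn library below every control and 4.33% every burn library above. In the family 2 members were below, Col9a1 and Col13a1, and 0 above. Col9a3 ran from 1.64 to 3.67 CPM. Col10a1, the collagen of hypertrophic cartilage, had 13 to 91 reads per library (log2 fold change -0.47, SE 0.35).

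Among the 21 other collagens 20 were tested, 17 with negative signs, and the median log2 fold change was -0.15 with 0 called. This median was 0.072 without control 2, which turned its sign, -0.051 without burn 2, -0.40 without burn 1, -0.28 without control 1 and -0.29 without control 3. Type VI collagen, a network of beaded filaments around cells, was the most abundant of them. Col6a1 stood at 229.6, 116 and 111 CPM in burn libraries 1 to 3 and 176, 271 and 124 CPM in controls 1 to 3. Col6a2 stood at 211, 99.5 and 96.4 CPM in burn libraries 1 to 3 and 159, 256 and 101 CPM in controls 1 to 3. For Col6a3, the longest of these chains, the values were 266, 119.9 and 119.8 CPM in burn libraries 1 to 3 and 189, 247 and 121 CPM in controls 1 to 3. In all 3 genes burn 1 and control 2 were the highest libraries and burn 3 the lowest, and the groups overlapped (log2 fold changes -0.33, -0.34 and -0.14). Col6a5, an alternative chain that can replace Col6a3, had the largest positive value of the family, 0.42 (SE 0.40). It stood at 25.1, 7.78 and 11.9 CPM in burn libraries 1 to 3 and 8.77, 12.7 and 12 CPM in controls 1 to 3, with burn 1 the highest library. Without burn 1 its log2 fold change was -0.17. Col6a6 and Col6a4 were sparse, at 2.88 ± 0.401 and 0.612 ± 0.213 CPM in controls (n = 3).

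Type VIII chains form hexagonal networks in vessel walls and under endothelia. Col8a1 stood at 114, 52.1 and 56.4 CPM in burn libraries 1 to 3 and 91.2, 129.5 and 60.8 CPM in controls 1 to 3 (log2 fold change -0.34, SE 0.37). Col8a2 stood at 67.6, 30.8 and 34.4 CPM in burn libraries 1 to 3 and 54.6, 101 and 37.4 CPM in controls 1 to 3, with control 2 well above the rest (log2 fold change -0.54, SE 0.44). Fibril-associated collagens bind the surface of fibrils. Col12a1, the most abundant of them, stood at 354, 167 and 206 CPM in burn libraries 1 to 3 and 276, 425 and 176 CPM in controls 1 to 3 (log2 fold change -0.27, SE 0.38). Col14a1 stood at 85.6, 49.2 and 80.3 CPM in burn libraries 1 to 3 and 55.4, 85.7 and 68.8 CPM in controls 1 to 3, with no difference in mean level beyond the spread (log2 fold change 0.037, SE 0.24). Col16a1 stood at 53, 35.3 and 43.6 CPM in burn libraries 1 to 3 and 40.3, 64.5 and 40.1 CPM in controls 1 to 3 (log2 fold change -0.13, SE 0.23). Col19a1 and Col20a1 lay at 5.34 ± 0.482 and 2.06 ± 0.341 CPM in controls (n = 3), with log2 fold changes of -0.017 and 0.12. Col22a1, a collagen of the junction between muscle and tendon, stood at 7.24, 10.7 and 4.18 CPM in burn libraries 1 to 3 and 23.4, 16.3 and 5.68 CPM in controls 1 to 3. Its difference was large and imprecise (log2 fold change -1.04, SE 0.55), and control 3 lay below burn 1 and burn 2. Skeletal muscle transcripts summed to 2760.1, 10439 and 1791 CPM in burn libraries 1 to 3 and 11463, 3831 and 739 in controls 1 to 3. In both measures control 1 was highest among controls and burn 2 highest among burn libraries, and the part of muscle in Col22a1 was not tested.

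Transmembrane collagens include Col13a1, which lies at cell adhesions and at the nerve-muscle junction and is encoded on chromosome 10 from 61838236 to 61979108 in GENCODE (GRCm38, minus strand). It had 53, 54 and 90 reads in burn 1 to 3 against 125, 70 and 187 in controls, which gave 3.41, 3.9 and 2.35 CPM in controls 1 to 3 and 2.34, 1.79 and 1.37 CPM in burn 1 to 3. Every burn value was below every control value, by a margin of under 0.01 CPM between burn 1 and control 3. Its log2 fold change was -0.82 (SE 0.29), 1.76-fold lower after the burn, and it did not pass (edgeR unadjusted p 0.0234, adjusted p 0.9998; 0.332 to 1 under the 15 alternatives). The deeper pair differed by -0.78 and the 4 shallower libraries by -0.83 on the log2 scale. The 250 bases upstream of its RefSeq start are shown because Col13a1 had no overlap between the groups at more than a few reads, chr10:61979109-61979358 in GRCm38.p6 on the minus strand, with capitals for the same motifs:
Col13a1: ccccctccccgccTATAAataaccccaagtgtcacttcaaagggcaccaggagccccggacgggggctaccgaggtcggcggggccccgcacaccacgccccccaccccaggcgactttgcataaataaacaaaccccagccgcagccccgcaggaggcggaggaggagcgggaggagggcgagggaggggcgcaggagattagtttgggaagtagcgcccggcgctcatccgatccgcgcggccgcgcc
The window holds TATAA 237 bases before the start and no match to the other motifs. Col23a1 stood at 52.3, 42.2 and 65.1 CPM in burn libraries 1 to 3 and 42.4, 81.1 and 53.4 CPM in controls 1 to 3 (log2 fold change -0.14, SE 0.26). Col25a1, a neuronal transmembrane collagen, was among the steadiest members, at 10.8, 10.3 and 14.3 CPM in burn libraries 1 to 3 and 10.2, 14.4 and 11.5 CPM in controls 1 to 3 (log2 fold change -0.016, SE 0.19).

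Col28a1, a small collagen known from the sheaths of peripheral nerve, did not follow the connective tissue order. It stood at 78.9, 81.7 and 135 CPM in burn libraries 1 to 3 and 85.9, 108 and 137 CPM in controls 1 to 3. The deeper libraries burn 3 and control 3 were highest and differed by -0.022 on the log2 scale (log2 fold change -0.16, SE 0.25). Col26a1 stood at 17.4, 9.17 and 10.5 CPM in burn libraries 1 to 3 and 12.5, 19.2 and 12.6 CPM in controls 1 to 3 (log2 fold change -0.26, SE 0.28). Col7a1, of the anchoring fibrils below epithelia, lay at 2.59 ± 0.148 CPM in burn libraries against 2.96 ± 1.02 (n = 3).

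Some members share annotated exon bases with another gene, so the count of reads from these bases may be affected. It is not known whether strand was used in counting or how such reads were treated. The largest overlap was that of Col4a3, with 563 bases shared with C430014B12Rik on the other strand. Col6a4 shared 289 bases, Col9a3 234, Col5a1 212 and Col3a1 141. Col11a2, Col13a1, Col1a1 and Col1a2 shared 0 bases.

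Chains of the same collagen type were compared as ratios of CPM per kb, as a description without a test. The pair of Col3a1 and Col1a1, which belong to different types, was added. Col4a1 to Col4a2 was the tightest pair, at 1.65, 1.77 and 1.72 in burn libraries 1 to 3 and 1.78, 1.8 and 1.81 in controls 1 to 3. These ratios spanned a factor of 1.1, while Col4a1 itself spanned a factor of 2.56 over the libraries. The ratio of Col6a1 to Col6a2 ran from 1.02 to 1.18, that of Col6a3 to Col6a1 from 0.415 to 0.527 and that of Col4a3 to Col4a4 from 0.759 to 0.913. Type I collagen was less even. Col1a1 to Col1a2 stood at 1.01, 0.919 and 0.661 after the burn and 1.07, 1.12 and 0.905 in controls, with burn 3 apart from the rest. Col3a1 to Col1a1 stood at 0.948, 0.809 and 1.33 after the burn and 0.545, 0.619 and 0.826 in controls, where burn 2 lay just below control 3. Col11a2 to Col11a1 stood at 0.463, 0.619 and 0.342 after the burn and 1.01, 0.961 and 0.574 in controls, with control 3 between burn 1 and burn 2. Col5a1 to Col5a2 ran from 0.603 to 0.778 and Col8a1 to Col8a2 from 1.08 to 1.43. The pairs led by Col3a1, Col5a1, Col4a3, Col8a1 and Col11a2 were chosen after seeing the data. Col9a1 was present at 0.00965 to 0.0218 of the level of Col9a2. The absolute ratios depend on the transcript lengths used. With the union of all annotated exons, an alternative also chosen after seeing the data, Col1a1 to Col1a2 had a mean of 2.17 in controls instead of 1.03.

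**Figure D5:**
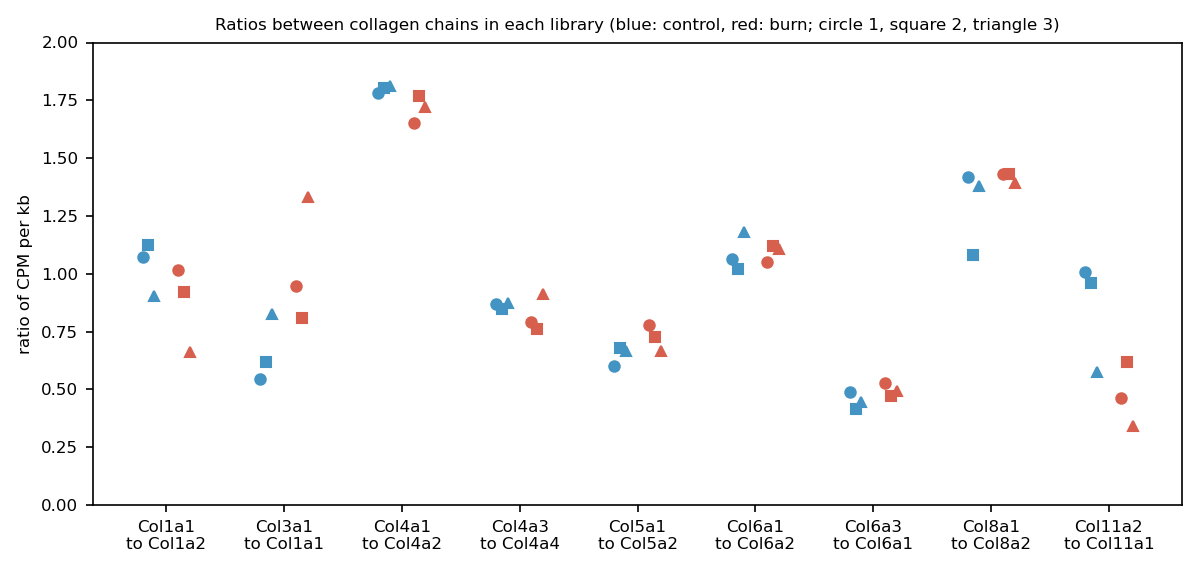
Ratios of CPM per kb between pairs of collagen chains in each library, controls in blue and burn in red, with 1 symbol per library number. Col4a1 to Col4a2 stays between 1.65 and 1.81, while Col3a1 to Col1a1 and Col11a2 to Col11a1 spread widest.

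Genes that make, modify, organise and sense collagen showed no calls either. Of 34 genes for synthesis and processing 34 were tested, 23 had negative signs, 0 were called, and the median log2 fold change was -0.094. The lowest unadjusted p-values there were those of Fkbp10, a chaperone of type I procollagen, at 20.8, 28.2 and 16.4 CPM in controls 1 to 3 and 20.8, 14.3 and 14.7 CPM in burn 1 to 3 (log2 fold change -0.39, SE 0.23), Leprel4, which acts with the lysyl hydroxylases (log2 fold change -0.31, SE 0.19), and Loxl1, a crosslinking oxidase (log2 fold change -0.54, SE 0.38). Of 12 receptors 6 were negative and 0 called, with a median of 0.0090. Lair1, an inhibitory collagen receptor of immune cells, stood at 6.5, 5.56 and 4.78 CPM in controls 1 to 3 and 10.3, 6.99 and 6.08 CPM in burn 1 to 3 (log2 fold change 0.47, SE 0.24), Itga10, an integrin chain that binds collagen, had -0.46 and Itga2, another, -0.17. Of 15 fibril-organising proteoglycans and glycoproteins 10 were negative and 0 called (median -0.11). Within this list Dcn and Lum, proteoglycans of soft connective tissue, were positive, and Fmod, a proteoglycan of tendon and cartilage, was negative, at 32.3, 52.4 and 13.7 CPM in controls 1 to 3 and 26.6, 14.1 and 15.6 CPM in burn 1 to 3 (log2 fold change -0.80, SE 0.49). Of 12 laminins and other basement membrane partners 8 were negative and 0 called (median -0.026), with Lama1 at 0.28, Lama2 at 0.12 and Agrn, a heparan sulfate proteoglycan, at -0.11.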

How the data were processed

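The authors deposited 1 table of whole-number read counts per gene symbol for each of 6 libraries, made with a stranded total RNA kit and 75-base single-end reads per the labels' protocols. Reads were aligned and counted with STAR, SAMtools and HTSeq on mm10 (GRCm38), per the submitters' processing notes. The sources used here do not name versions, an annotation release or a strand setting. The tally lines that name no gene (49.2 to 56.2% of all entries) were left out. Genes passing filterByExpr (minimum count 10, minimum total 15) were scaled by TMM and tested burn against control with edgeR 4.0.16 in R 4.3.3 (quasi-likelihood, robust, Benjamini-Hochberg over 17534 genes), on all 6 libraries without covariates. CPM per kb uses the principal transcript of GENCODE M21, which holds all 44 members. Promoters came from RefSeq (GRCm38.p6), which matched 35 members.

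The members and gene lists were chosen with earlier results of these data known. Values in every library are printed for members with a mean of at least 10 CPM and for the 3 of lowest p in each class; from each companion list up to 3 genes of lowest p are named, and from marker lists the sum and up to 2 most abundant genes. For the bone and cartilage lists, genes left out by the filter and the other cartilage genes detected are also named, chosen after their values were seen. The 15 alternatives comprised other scalings and filters, DESeq2 1.42.0, limma-voom (limma 3.58.1), a depth term, the 4 shallower libraries, leaving out each library, and a replicate block. The fit was tested on simulated data. Depth limits the precision of members with few reads, and the Wilson intervals cover counting error only.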

Additional observations from a re-analysis of the deposited data

How the results depend on the processing

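Over all genes edgeR called 4 higher and 0 lower. It called 14 higher without a filter on low counts, 2 with a minimum count of 50, 17 higher and 21 lower with the depth term, and 11 higher and 4 lower in the 4 shallower libraries. DESeq2 called 28 higher, and leaving out each library gave 1 to 6. In the family 1 member, Col11a2, was called lower with the depth term and 1, the same gene, in the 4 shallower libraries. At an unadjusted p under 0.05 the count of 2 lower members was 5 with the depth term, 4 in the 4 shallower libraries and 5 with the replicate block. It ran from 1 to 10 when each library was left out, 10 of these without burn 1 and 6 without control 3. The share of all genes lower at this p was counted for the main fit only (edgeR, 0.924%). Whether the counts under the other settings exceed the share over all genes is therefore not known. Median log2 fold changes ran over left-out libraries from -0.50 to -0.0035 for the family, -0.73 to -0.062 for fibrillar chains, -0.43 to 0.15 for basement membrane chains, -0.62 to -0.27 for cartilage chains, -0.40 to 0.072 for the others. The sign of the basement membrane median turned without control 2, burn 2 or burn 3, and that of the others without control 2. The replicate block covered the 4 libraries numbered 1 and 2 in the labels, which are also the 4 shallower libraries. It gave 4 higher and 0 lower genes, a family median of -0.30, and changed no call of a member. Same-numbered libraries correlated in their deviations from the group means at -0.0903 for number 1 and -0.0551 for number 2, so the numbers were not taken to pair samples. Higher correlations were found for burn 3 with control 3 (0.444), burn 1 with control 2 (0.438) and burn 2 with control 1 (0.382). The labels do not give such pairs, and no fit paired the libraries in this way. The unpaired fit leaves this shared spread in its error. On simulated counts of 17331 genes the fit called 33 of 67 genes raised by 1 on the log2 scale and 66 of 67 raised by 2. The same fit called 64 of 66 genes raised by 4 and, wrongly, 16 of 17131 unchanged genes. Recovery of lowered genes, and of collagen genes with the spread of these libraries, was not tested. With union exon lengths the mean ratios after the burn and in controls were 1.82 and 2.17 for Col1a1 to Col1a2, 1.56 and 1.64 for Col4a1 to Col4a2, 2.16 and 2.15 for Col6a1 to Col6a2, and 0.399 and 0.361 for Col6a3 to Col6a1. In controls the same lengths gave, in CPM per kb, Col1a2 154, Col3a1 135. The sign of the log2 fold change held in every alternative that tested the gene for 20 of 43 members, 19 negative and 1 positive, Col4a6. It turned in at least 1 for the other 23, none of them called. Their ranges over left-out libraries were Col2a1 -0.19 to 0.36, Col4a3 -0.44 to 0.10, Col4a4 -0.41 to 0.20, Col5a1 -0.68 to 0.0082, Col5a3 -0.35 to 0.10, Col6a1 -0.75 to 0.016, Col6a2 -0.81 to 0.055, Col6a3 -0.63 to 0.12, Col6a4 -0.24 to 0.19, Col6a5 -0.17 to 0.73, Col6a6 -0.50 to 0.20, Col7a1 -0.40 to 0.090, Col12a1 -0.65 to 0.098, Col14a1 -0.11 to 0.25, Col15a1 -0.12 to 0.54, Col16a1 -0.29 to 0.13, Col18a1 -0.15 to 0.32, Col19a1 -0.29 to 0.13, Col20a1 -0.12 to 0.25, Col23a1 -0.33 to 0.15, Col25a1 -0.17 to 0.12, Col28a1 -0.45 to 0.030. Other turned values were Col14a1 -0.047 (shallower libraries alone), Col14a1 -0.070 (replicate block), Col19a1 0.0023 (limma-voom), Col24a1 -0.033 (shallower libraries alone), Col24a1 -0.031 (replicate block), Col25a1 0.052 (limma-voom), Col6a4 0.20 (shallower libraries alone), Col6a4 0.18 (replicate block). The causes were not tested.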
